A study of Mus musculus with 4 samples.

Results

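The nuclear genes for the oxidative phosphorylation complexes were followed in bone-marrow cells of C57BL/6 mice, in 2 libraries from wild-type animals (WT) and 2 from Asxl1-/- animals (KO). Members were chosen by name: loci carrying a gene whose symbol begins with Nduf followed by a, b, c, s or v, with Uqcr, with Atp5 or with Cox4 to Cox8, or is Sdha, Sdhb, Sdhc or Sdhd. Of 89 such loci, 88 passed the filter of a normalised read count of at least 10 in at least 2 libraries, out of 13764 loci tested in all. The one below it was Cox7b2, a testis isoform of a cytochrome oxidase subunit, with 2 reads in KO replicate 1 and 0 in the other libraries. The 88 comprised 40 loci of complex I, 4 of complex II, 8 of complex III, 19 of complex IV and 17 of complex V. Of these loci, 79 carry a structural subunit, and 16 merge 2 or more gene names so that their reads cannot be divided between them.

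The cells were Lin-Kit+, the marrow fraction without surface markers of mature lineages and with the Kit receptor, which holds stem and progenitor cells. No label gives the age of the animals or says that the libraries of a genotype came from separate animals. Replicate 2 of each genotype carried the Y-linked transcript Eif2s3y, at 6581 in WT and 7647 in KO, whereas replicate 1 had 11.7 and 3.03, so the spread behind each p-value includes a difference in sex between the libraries of a genotype. Asxl1, the targeted gene and a chromatin regulator of the Polycomb group, had normalised read counts of 9742 and 9472 in WT and 146 and 135 in KO (log2 fold change -6.09 ± 0.09 SE, adjusted p = 8.89e-06, limma). Kit was present at 16149 to 18889 in all 4 libraries. Of 8 progenitor markers, 7 had both KO values below WT and 3 were called lower: Cd34 (-0.83), Flt3 (-0.61) and Mecom (-1.39, log2 fold changes). Over all tested loci 33.6% had both KO values below WT, 11.9% were called higher and 8.97% lower. Summed markers of mature neutrophils were at 1067580 and 1191000 in WT against 2148740 and 2009520 in KO, and 10 of 11 tested markers were called higher. Summed markers of B-lineage cells were at 73995 and 73052 in WT against 56817 and 39999 in KO, with 3 of 8 called lower. Summed erythroid markers were at 84715 and 94892 in WT against 144221 and 162542 in KO, with 5 of 10 called higher. Other cell types also shifted: 5 of 8 mast cell and basophil markers were called lower and 3 of 8 megakaryocyte markers higher. Of 7 tested macrophage markers 1 was called higher and 3 lower, and of 8 T and NK markers 2 were called lower. In these bulk libraries, fewer cells of a type and less RNA per cell cannot be told apart, and the part of these shifts in the results that follow was not tested.

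The complexes sit in the inner mitochondrial membrane. Complex I and complex II pass electrons from NADH and succinate to ubiquinone, complex III passes them on to cytochrome c, complex IV reduces oxygen with them, and complex V uses the resulting proton gradient to make ATP. Most subunits are nuclear-encoded and imported, and a few of the catalytic ones come from the mitochondrial genome. Blood stem cells are known for a low reliance on this pathway, which rises as progenitors commit and divide.

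As a group the oxidative phosphorylation loci changed little in KO. Of the 88 loci, 3 were called higher and 5 lower at an adjusted p under 0.05, which is 9.09% of them, while 20.9% of all tested loci were called in either direction, 11.9% higher and 8.97% lower. The loci called higher were Ndufv3 and the locus of Ndufb6 in complex I and Cox6b2 in complex IV. Those called lower were Sdha in complex II, the locus of Uqcrb in complex III and Ndufa4 in complex IV. The locus of Atp5j2 in complex V and that of Cox4nb were also called lower. Cox4nb was grouped with complex IV by its name alone and is no part of it. With structural subunits alone, 4 were called lower. An unadjusted p under 0.05 was reached by 26 of the 88, or 29.5%, and by 37.7% of all loci. With libraries scaled to their upper quartile the split became 3 higher and 18 lower, with 1408 higher and 1901 lower over all loci, or 10.2% and 13.8% of them and 24% in either direction. Leaving out WT replicate 1 left Ndufv3 called higher and leaving out WT replicate 2 left Cox6b2, with 0 called lower in both, where 6.31% and 7.85% of all loci were called. Under the other settings the share of all loci called in either direction was 20.6% with edgeR, 24.8% with DESeq2, 20.9% with TMM scaling, 21.8% with median-centred libraries, 21.1% with a pseudocount of 8, 14% without a filter, 25.2% with a minimum of 100, 25% with the replicate number as a block, and 23.5% and 23.1% without KO replicate 1 and 2.

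The sizes of the differences were small. The median log2 fold change on log2(value + 1) was -0.075 over the 88 loci and -0.0062 over all tested loci, and 61 of the 88 had a negative value, or 69.3% against 50.9% of all loci. A difference under 1.2-fold was found for 74 of the 88, or 84.1%, compared with 57.6% of all loci. The 95% interval lay wholly within 1.5-fold of no change for 78, or 88.6%, compared with 56.3% of all loci. The median SE was 0.068 over the 88 loci and 0.097 over all loci. These shares were not matched for read level, so they do not show that the 88 were steadier than other loci of like level. A fitted value of 1.5-fold or more occurred at 3 loci, Cox6a2, Cox4i2 and Cox6b2, all of them carrying the gene of a tissue isoform of complex IV, the first at a merged locus. Both KO libraries lay above both WT libraries at 14 loci and below them at 43, and the ranges overlapped at 31. Over all loci 32.5% were separated upwards, 33.6% downwards and 66.1% in either direction. By replicate number, KO minus WT had a median of -0.10 in replicate 1 and -0.044 in replicate 2, and 47 loci (53.4%) were lower and 18 (20.5%) higher in both. Over all loci these medians were -0.0063 and -0.0046, with 39.1% lower and 37.6% higher in both.

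**Figure D1:**
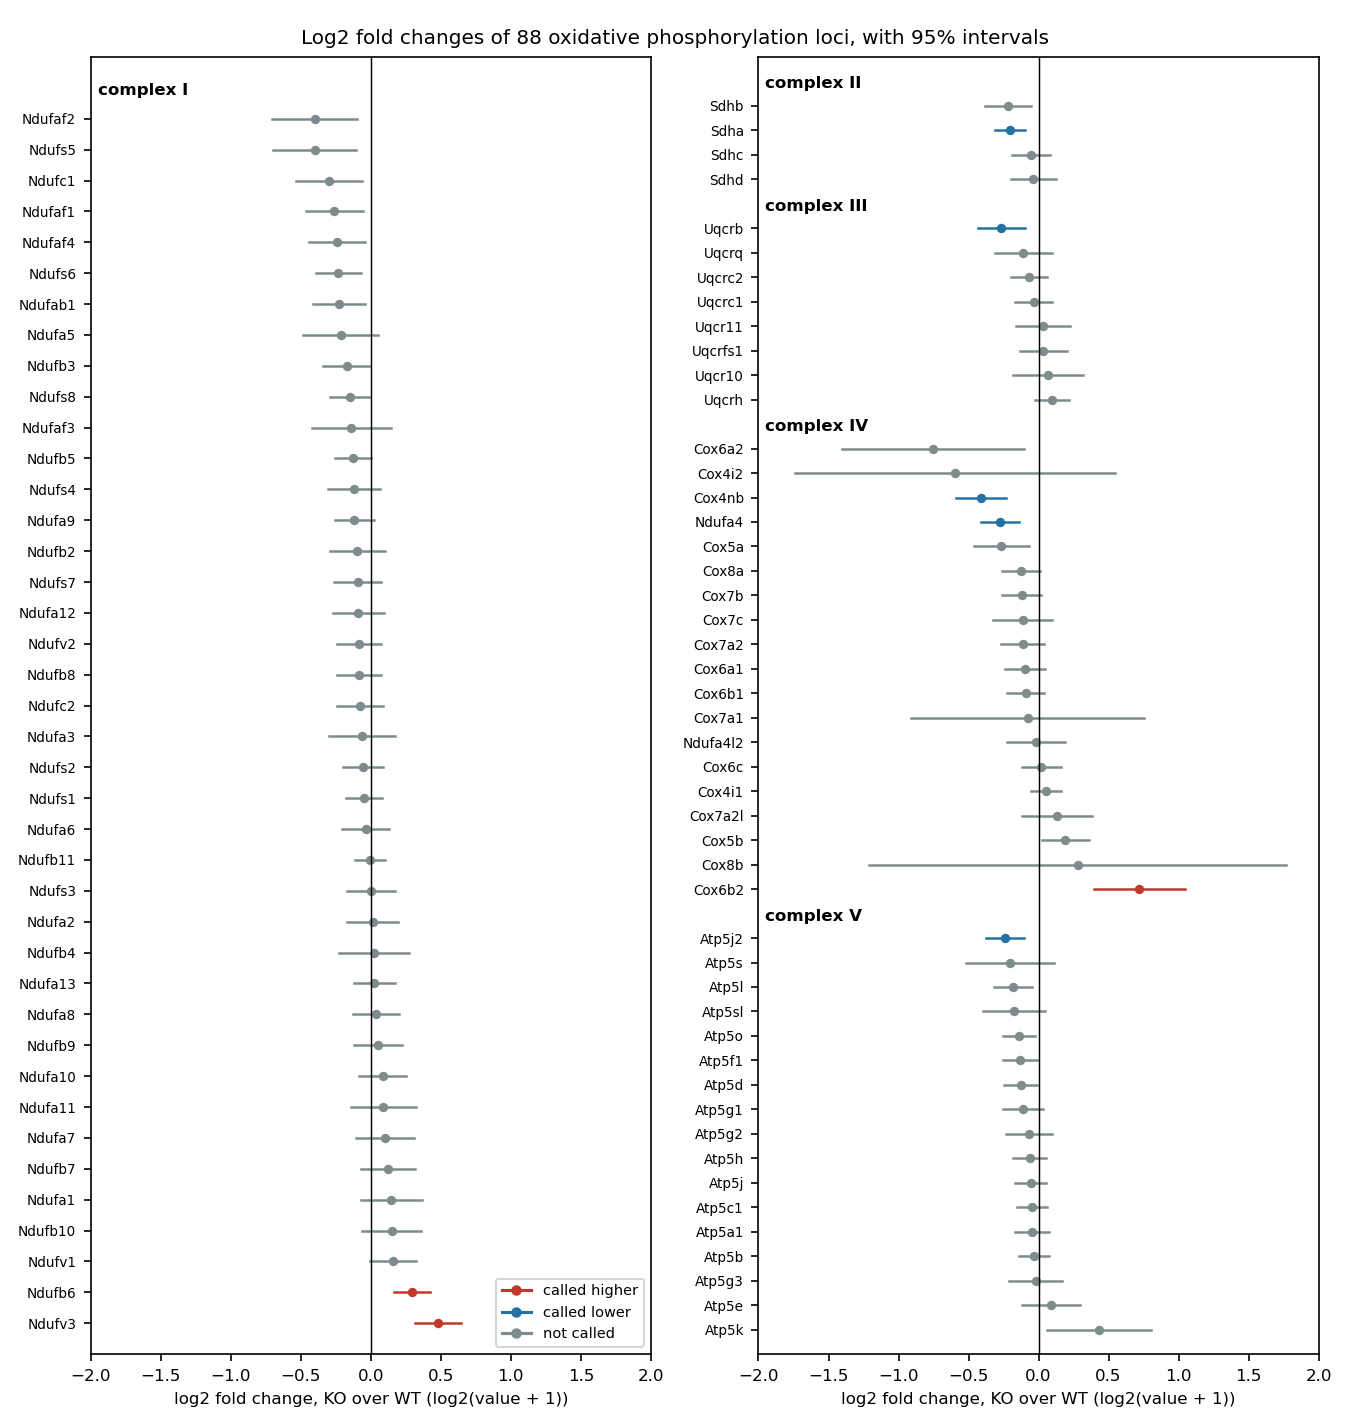
Log2 fold change of KO over WT, on log2(value + 1), for each of the 88 loci, grouped by complex. Points are limma estimates from 2 libraries per genotype and lines are 95% intervals. Most intervals cross or lie close to 0, the 3 loci called higher are red and the 5 called lower are blue.

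Promoter sequence is shown for the loci on which the comparison turned, Ndufv3 and Cox6b2 as loci that rose, Sdha and Ndufa4 as subunits that fell, and Cox6b1 as the ubiquitous partner of Cox6b2. The sequences are the 250 bases before the annotated start, 5′ to 3′ on the gene's strand, from RefSeq on GRCm38.p6. Those of Ndufv3 (chr17:31519865-31520114, plus strand), Cox6b2 (chr7:4753095-4753344, minus strand), Sdha (chr13:74350241-74350490, minus strand), Ndufa4 (chr6:11907451-11907700, minus strand) and Cox6b1 (chr7:30626115-30626364, minus strand) are given on 5 lines, with matches in capitals.
Ndufv3: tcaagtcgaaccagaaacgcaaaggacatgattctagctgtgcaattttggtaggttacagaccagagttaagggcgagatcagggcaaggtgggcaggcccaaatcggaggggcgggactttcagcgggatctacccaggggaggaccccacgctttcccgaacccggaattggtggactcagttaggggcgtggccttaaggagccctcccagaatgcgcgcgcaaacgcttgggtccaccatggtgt
Cox6b2: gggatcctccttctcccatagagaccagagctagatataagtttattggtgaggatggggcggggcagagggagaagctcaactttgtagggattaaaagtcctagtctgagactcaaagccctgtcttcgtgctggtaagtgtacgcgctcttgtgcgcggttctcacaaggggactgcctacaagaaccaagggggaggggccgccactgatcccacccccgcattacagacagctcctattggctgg
Sdha: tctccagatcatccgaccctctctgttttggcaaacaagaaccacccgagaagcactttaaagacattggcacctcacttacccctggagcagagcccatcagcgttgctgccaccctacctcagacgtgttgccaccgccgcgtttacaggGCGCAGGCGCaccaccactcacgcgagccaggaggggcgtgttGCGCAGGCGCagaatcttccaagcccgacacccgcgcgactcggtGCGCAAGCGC
Ndufa4: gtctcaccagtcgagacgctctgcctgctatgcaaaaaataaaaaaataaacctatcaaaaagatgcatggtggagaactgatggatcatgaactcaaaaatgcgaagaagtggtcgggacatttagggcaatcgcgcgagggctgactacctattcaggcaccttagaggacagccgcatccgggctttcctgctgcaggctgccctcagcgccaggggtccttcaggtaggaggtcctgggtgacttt
Cox6b1: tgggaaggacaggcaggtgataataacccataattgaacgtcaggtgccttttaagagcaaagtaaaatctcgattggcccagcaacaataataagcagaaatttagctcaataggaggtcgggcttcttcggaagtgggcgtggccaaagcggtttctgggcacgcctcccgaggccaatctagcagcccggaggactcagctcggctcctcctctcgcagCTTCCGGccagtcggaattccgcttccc
Capitals mark letters that matched 1 of 4 motifs searched on both strands: GCGCANGCGC for nuclear respiratory factor 1 (NRF1), a regulator of many respiratory genes, CCGGAAG for ETS factors such as the GABP proteins, AAGATGGCG for YY1, and TATAAA for a TATA box. Sdha held 3 NRF1 matches, starting 98, 55 and 10 bases before the start, and Cox6b1 held 1 ETS match, 28 bases before it, on the opposite strand. Ndufv3, Cox6b2 and Ndufa4 held none of the 4 motifs in this window, which says only that these letters are not there.

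A promoter window was found for 70 of the 88 loci. The NRF1 letters occurred in 14 of the 70, or 20%, compared with 4.23% of 27025 genes. The ETS letters occurred in 13, or 18.6%, compared with 7.83% of all genes. The TATA letters occurred in 5, or 7.14%, compared with 14.3%, and the YY1 letters in 1, compared with 0.710%. The 27025 genes were not limited to the tested loci. Among loci with a single gene name, the median log2 fold change was -0.066 for the 14 with the NRF1 letters and -0.083 for the 48 without. For the ETS letters it was -0.038 for 9 with and -0.084 for 53 without, and for the TATA letters 0.019 for 4 and -0.083 for 58. Whether these medians differ was not tested.

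Complex I, the NADH dehydrogenase, had 2 loci called higher and 0 called lower of 40 by limma, or 5% against 20.9% of all loci. An unadjusted p under 0.05 was reached by 11 (27.5%, against 37.7% of all loci), and the median log2 fold change was -0.071. With edgeR 1 locus was called lower and with DESeq2 2 were. Ndufv3, an accessory subunit of the NADH-binding arm (mm9 chr17:31657059-31668270), had normalised read counts of 1991 and 1937 in WT and 2810 and 2679 in KO. Every KO value lay above both WT values. The log2 fold change was 0.48 ± 0.07 SE (adjusted p = 0.0076, limma), and KO averaged 140% of WT. The adjusted p was 0.053 without WT replicate 2 and 0.048 without WT replicate 1.

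Ndufb6, an accessory subunit of the membrane arm, shares a locus with Topors, a ubiquitin and SUMO ligase, and a clone (mm9 chr4:40206638-40226401). That locus had 7185 and 7252 in WT and 9144 and 8583 in KO, and the genotypes did not overlap. It rose by a log2 fold change of 0.30 ± 0.05 SE (adjusted p = 0.016, limma), and which of the merged genes carried the increase cannot be told apart. The adjusted p was 0.10 without WT replicate 1 and 0.086 without WT replicate 2. The other 9 Ndufb loci, also of the membrane arm, were not called and had a median of -0.0072. Ndufb10 (0.15) and Ndufb7 (0.12) were the 2 of them with both KO values above WT, and their difference from Ndufb6 was not tested.

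The partners of Ndufv3 in the NADH-binding arm were not called. Ndufv1, which binds NADH and flavin, had 6583 and 6305 in WT and 6821 and 7576 in KO (log2 fold change 0.16 ± 0.07 SE, adjusted p = 0.14, limma), with both KO values above both WT values. Ndufv2, the iron-sulfur partner of Ndufv1, had 4872 and 5202 in WT and 4609 and 4894 in KO, with overlapping ranges. Ndufs1, the large iron-sulfur subunit of the same arm, had 10124 and 9824 in WT and 9364 and 9919 in KO at a locus shared with a clone. None of the 7 core subunits of complex I, those that carry the redox groups and the quinone site, was called by limma, 1 of them had an unadjusted p under 0.05, and all 7 intervals lay within 1.5-fold.

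On the low side of complex I, several small accessory subunits missed the threshold. Ndufs6, a zinc-binding subunit, had 2400 and 2497 in WT and 2081 and 2086 in KO (log2 fold change -0.23 ± 0.07 SE, adjusted p = 0.055, limma). Ndufs5, on the intermembrane side, had 1256 and 1314 in WT and 875 and 1079 in KO (-0.40 ± 0.12 SE, adjusted p = 0.065, limma). In both genes the 2 KO values lay below the 2 WT values, and neither passed the test.

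The assembly factors Ndufaf1 to Ndufaf4, which build complex I but are not part of it, were all 4 below WT without overlap. Of all tested loci, 33.6% were separated downwards, 20.9% were called in either direction and 37.7% had an unadjusted p under 0.05. The median log2 fold change of the 4 was -0.25. By limma 0 of the 4 were called and 3 had an unadjusted p under 0.05. Ndufaf2, at a locus listed also as mimitin, had 596 and 606 in WT and 484 and 427 in KO (-0.40 ± 0.12 SE, adjusted p = 0.069, limma). Ndufaf4 had 2130 and 2360 in WT and 1849 and 1947 in KO (-0.24 ± 0.08 SE, adjusted p = 0.084, limma). With upper-quartile scaling Ndufaf1, Ndufaf2 and Ndufaf4 passed the threshold, at adjusted p-values of 0.046, 0.047 and 0.044. Of 9 complex I assembly factors outside the name rule, 1 was called: Tmem126b, of the intermediate assembly complex, fell from 635 and 620 to 452 and 427 (-0.51 ± 0.12 SE, adjusted p = 0.029, limma), and at adjusted p-values of 0.17 and 0.14 without WT replicate 1 and 2 it was not called.

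Complex II, the succinate dehydrogenase, also belongs to the tricarboxylic acid cycle and is wholly nuclear-encoded. Sdha, the flavoprotein that oxidises succinate (mm9 chr13:74459702-74487688), had 18168 and 18010 in WT and 15559 and 15834 in KO. Both KO values were below both WT values by far more than the libraries of a genotype differed. Sdha fell by a log2 fold change of -0.20 ± 0.04 SE (adjusted p = 0.024, limma), to 86.8% of WT, and the adjusted p was 0.17 and 0.14 without WT replicate 1 and 2.

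Sdhb, the iron-sulfur protein bound to Sdha, had 5427 and 5272 in WT and 4374 and 4828 in KO (-0.22 ± 0.07 SE, adjusted p = 0.065, limma). Its value was as large as that of Sdha, with more spread between the KO libraries. The membrane anchors Sdhc and Sdhd stood closer to WT: Sdhc had 5193 and 5081 against 4842 and 5068, and Sdhd had 10853 and 11277 against 10190 and 11392. The log2 fold changes of the anchors were -0.052 ± 0.055 SE for Sdhc and -0.038 ± 0.066 SE for Sdhd, neither called. Whether the catalytic pair and the anchors differ from each other was not tested.

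Complex III had 1 locus called lower and 0 higher of 8, or 12.5% against 20.9% of all loci, and a median of -0.0025. Uqcrb, a small subunit at the ubiquinone-binding region, shares its locus with Gm10767 (mm9 chr13:67001556-67010102). That locus had 4560 and 4144 in WT and 3668 and 3563 in KO, a fall by -0.27 ± 0.07 SE on the log2 scale (adjusted p = 0.042, limma). The call was not kept under several settings: the adjusted p was 0.055 with edgeR, 0.067 with median-centred libraries, 0.052 without a filter, and 0.26, 0.083 and 0.065 without WT replicate 1, WT replicate 2 and KO replicate 2.

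The other 7 loci of complex III lay between -0.11 and 0.098. Uqcrfs1, the Rieske iron-sulfur protein, had 6834 and 6832 in WT and 6587 and 7441 in KO. Uqcrh, the hinge protein near cytochrome c1, was the one locus of the complex with both KO values above WT, at 5534 and 5540 against 5961 and 5891 (0.098 ± 0.049 SE, adjusted p = 0.20, limma). Cyc1, the cytochrome c1 subunit, lies outside the name rule and had 9233 and 9691 in WT and 8195 and 8960 in KO (-0.14 ± 0.06 SE, adjusted p = 0.15, limma).

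**Figure D2:**
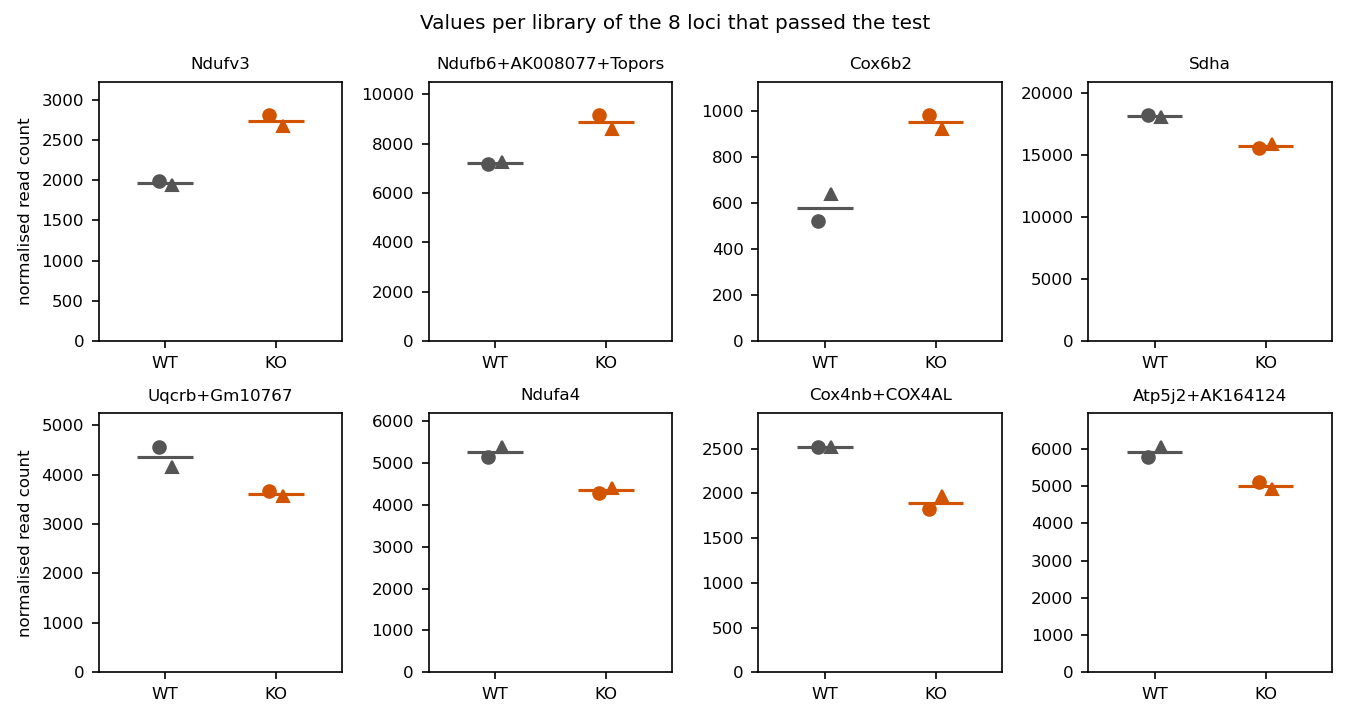
Normalised read count per library (vertical axis, from 0) in WT and KO for the 8 loci that passed the test. Circles are replicate 1, triangles replicate 2 and lines the mean of the 2 libraries. In each panel the KO values lie wholly on one side of the WT values, as at 66.1% of all tested loci. They run from 920 to 982 against 521 to 639 for Cox6b2 and from 15559 to 15834 against 18010 to 18168 for Sdha. The loci were chosen by the test, so this separation is no added support.

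Complex IV, the cytochrome c oxidase, held the widest spread, with log2 fold changes from -0.75 to 0.72, the lower end at the merged locus of Cox6a2 and the upper end at Cox6b2. Cox6b2, known as the testis isoform of a subunit near the cytochrome c site (mm9 chr7:4703395-4704696), had 521 and 639 in WT and 982 and 920 in KO. It rose by a log2 fold change of 0.72 ± 0.13 SE (adjusted p = 0.017, limma), to 164% of WT, and the adjusted p was 0.087 without WT replicate 1. Its ubiquitous counterpart Cox6b1 had 5200 and 4994 in WT and 4759 and 4802 in KO and was not called (-0.092 ± 0.054 SE). Per kb of transcript, Cox6b2 made up 10.1% and 12.5% of the pair in WT and 18.7% and 17.6% in KO (11.3% ± 1.73 and 18.2% ± 0.77, SD, n = 2 libraries each).

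Neighbouring loci were read beside Cox6b2. Suv420h2, a histone methyltransferase gene 4279 bases away, had 6559 and 6909 in WT and 8060 and 8007 in KO and also rose (0.25 ± 0.05 SE, adjusted p = 0.022, limma). Fam71e2, 132 bases away, was at 1.30 and 2.44 in WT and 7.58 and 6.60 in KO, below the filter. Whether reads of neighbouring transcripts contribute to the Cox6b2 value was not tested.

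The other tissue isoforms had few reads, and their intervals were wide. Cox4i2, the lung isoform, had 49.2 and 32.9 in WT and 18.2 and 38.0 in KO, and made up 0.152% to 0.421% of its pair with Cox4i1. Cox7a1, a heart and muscle isoform, had 50.5 and 53.7 against 38.7 and 62.7, and Cox8b had 11.7 and 4.88 against 8.34 and 10.7. All 3 had overlapping genotypes. Cox6a2, a muscle isoform, shares its locus with the integrin gene Itgad and 2 clones, and that locus had 176 and 134 in WT and 106 and 77.6 in KO (-0.75 ± 0.26 SE, adjusted p = 0.094, limma).

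Among the ubiquitous subunits of complex IV, Ndufa4 fell. It was named for complex I and is now placed in complex IV (mm9 chr6:11850372-11857446), with 5147 and 5380 in WT and 4282 and 4403 in KO. The log2 fold change was -0.28 ± 0.06 SE (adjusted p = 0.022, limma), or 82.5% of WT, and the adjusted p was 0.099 and 0.15 without WT replicate 1 and 2. Its relative Ndufa4l2 could not be read, since its locus is merged with the abundant folate-pathway gene Shmt2, at 11684 to 13837.

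The remaining nuclear subunits of complex IV were not called. Cox5a, which sits on the matrix side, had 5816 and 5202 in WT and 4367 and 4797 in KO (-0.27 ± 0.08 SE, adjusted p = 0.063, limma). Cox5b, a zinc-binding subunit, pointed the other way, with 4025 and 3945 in WT and 4316 and 4795 in KO (0.19 ± 0.07 SE, adjusted p = 0.10, limma). Cox4i1, which anchors the early assembly of the enzyme, differed little, at 12041 and 12040 in WT and 12334 and 12658 in KO. All 11 ubiquitous subunits had an interval within 1.5-fold, compared with 56.3% of all loci. Of the 11, 7 had both KO values below WT and 3 above, where all loci had 33.6% below and 32.5% above.

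A pair of loci in this group owe their place to their names. Cox4nb is an older name of Emc8, a subunit of the endoplasmic reticulum membrane complex and no part of cytochrome oxidase. Its locus fell from 2520 and 2521 to 1824 and 1969 (-0.41 ± 0.07 SE, adjusted p = 0.014, limma), with adjusted p-values of 0.095 and 0.086 without WT replicate 1 and 2, and Cox4i1 lies 177 bases from it. Cox7a2l, a supercomplex factor, had 9739 and 8654 in WT and 11042 and 9180 in KO, with overlapping ranges.

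Complex V, the ATP synthase, had 1 locus called lower and 0 higher of 17, or 5.88% against 20.9% of all loci. Negative values were found at 15 of the 17, or 88.2%, compared with 50.9% of all loci. Among the 15 were Atp5s, known as coupling factor B (-0.20), and the similar Atp5sl (-0.17), which are not counted as structural subunits. The locus of Atp5j2, which encodes the f subunit of the membrane part (mm9 chr5:145944574-145952461, merged with a clone), had 5791 and 6054 in WT and 5112 and 4919 in KO. The fall was -0.24 ± 0.06 SE on the log2 scale (adjusted p = 0.032, limma), to 84.7% of WT, and the adjusted p was 0.13 without WT replicate 1, 0.20 without WT replicate 2 and 0.051 without KO replicate 2. Atp5l, the g subunit beside it, had 6112 and 6381 in WT and 5380 and 5632 in KO at a merged locus (-0.18 ± 0.06 SE, adjusted p = 0.066, limma). Atp5k, the e subunit of the same region, had higher values in KO, 324 and 298 against 231 and 231 in WT, and was not called (0.43 ± 0.15 SE, adjusted p = 0.095, limma).

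The catalytic head was close to its WT level. Atp5b, the catalytic beta subunit, had 83875 and 80940 in WT and 79849 and 81293 in KO (log2 fold change -0.032 ± 0.044 SE). Atp5a1, the alpha subunit, had 62335 and 61370 in WT and 58079 and 61790 in KO (-0.046 ± 0.049 SE). In both genes the genotypes overlapped, and the intervals of all 5 head and stalk subunits, alpha to epsilon, lay within 1.5-fold. The 4 peripheral stalk loci, Atp5o, Atp5f1, Atp5h and Atp5j, all had both KO values below WT, as did 33.6% of all loci. Their median was -0.098, and by limma 0 were called and 2 had an unadjusted p under 0.05, where 37.7% of all loci did. Of the 3 genes for the same c-ring protein, Atp5g1, Atp5g2 and Atp5g3, 0 were called by limma and 0 had an unadjusted p under 0.05, with values from -0.11 to -0.021.

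**Figure D3:**
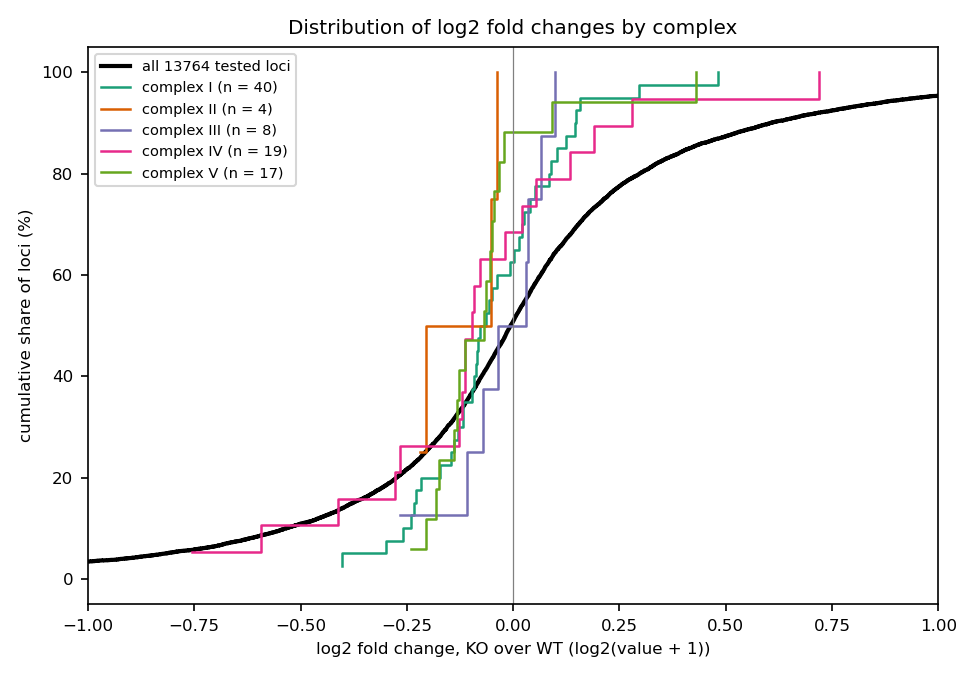
Cumulative share of loci (vertical axis, %) at or below each log2 fold change of KO over WT (horizontal axis, log2(value + 1), drawn from -1 to 1) for all 13764 tested loci and for the loci of each complex. The curves of the complexes rise more steeply around 0 than that of all loci, and all but complex III have a median below the -0.0062 of all loci.

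Across the complexes the median log2 fold changes were -0.071, -0.13, -0.0025, -0.098 and -0.068 for complexes I to V, and differences between complexes were not tested. The 17 core subunits had a median of -0.050, with 1 called lower (5.88%, against 20.9% of all loci) and all 17 intervals within 1.5-fold. The 57 accessory subunits had a median of -0.071, with 2 called higher and 3 lower, or 8.77%. Between the 2 KO libraries the loci had a median difference of 0.037 (replicate 2 minus replicate 1), compared with 0.00012 over all loci.

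Levels can be compared between genes only per length, and 63 of the 72 loci with a single name had a usable transcript length. The median value per kb of single-name structural subunits, tissue isoforms left out, was 3197 and 3272 in WT for complex I, against 2957 and 3050 in KO. For complex V the WT libraries had medians of 12414 and 11609 and the KO libraries 11179 and 12635. Complexes II, III and IV lay between them, with WT medians of 5414 to 8414. The highest of these subunits was Atp5b at 43010 per kb in WT and the lowest Atp5k at 621, a ratio of 69.2 within 1 complex. Many of these genes have processed pseudogenes, and how reads that match several places were counted is not given in the sources used here, so levels per kb are a description only.

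**Figure D4:**
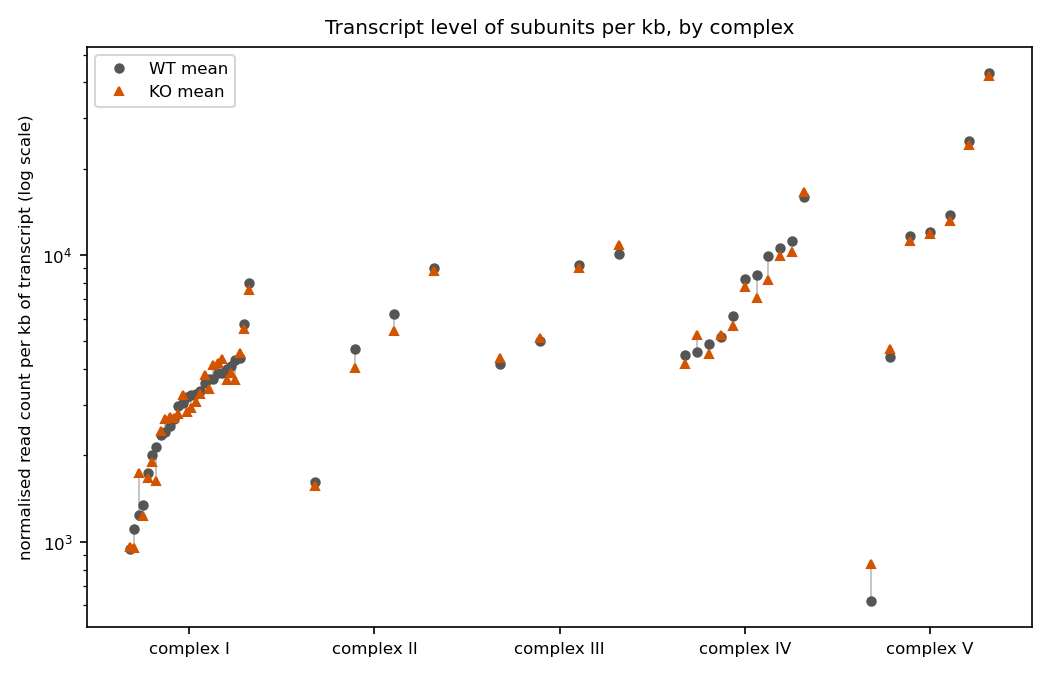
Mean normalised read count per kb of transcript (vertical axis, log scale) in WT (circles) and KO (triangles) for the 54 single-name structural subunits with a usable length, tissue isoforms left out, sorted within each complex. Grey lines join the genotypes of 1 gene. The differences between genes, from 621 to 43010 in WT, are far wider than those between genotypes.

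Genes around the complexes showed calls in both directions. Of 10 tested electron carriers and quinone-linked dehydrogenases, 3 were called higher and 1 lower, or 40% against 20.9% of all tested loci. Cycs, the somatic cytochrome c that links complexes III and IV, fell from 4613 and 5070 to 3673 and 3715 (-0.39 ± 0.07 SE, adjusted p = 0.013, limma), with an adjusted p of 0.087 without WT replicate 2. Sqrdl, which feeds electrons from sulfide into ubiquinone, rose from 2678 and 2806 to 4657 and 4268 (0.70 ± 0.07 SE, adjusted p = 0.0029, limma), and was called in all 13 alternative settings. Prodh, the proline dehydrogenase, rose by 0.35 ± 0.08 SE (adjusted p = 0.032, limma), with adjusted p-values of 0.085, 0.19 and 0.052 without WT replicate 1, WT replicate 2 and KO replicate 2.

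Assembly factors of the later complexes gave few calls, where 20.9% of all tested loci were called. Of 7 for complexes II and III, 0 were called by limma and 3 had an unadjusted p under 0.05, where 37.7% of all loci did. Of 16 for complex IV, 1 was called: Cox18, which inserts a core subunit into the membrane, rose from 1002 and 1016 to 1265 and 1321 (0.36 ± 0.08 SE, adjusted p = 0.033, limma), and was not called without WT replicate 1, WT replicate 2 or KO replicate 2 (adjusted p = 0.18, 0.15 and 0.062). Of 3 for complex V, 1 was called: Tmem70 fell from 2321 and 2282 to 1793 and 1695 (-0.40 ± 0.07 SE, adjusted p = 0.015, limma), with 0.11 and 0.086 without WT replicate 1 and 2.

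The mitochondrial genome loci were not called by limma in the main fit. They include ribosomal RNA, so not all of them encode partners of the nuclear subunits. Of 8 such loci, 0 were called by limma and 2 had an unadjusted p under 0.05, where 37.7% of all loci did. The median log2 fold change of the 8 was -0.069, and it includes Atpase6 and Cox2, at values of only 20.5 to 37.8. The locus AK163440 (-0.22, adjusted p = 0.073, limma) was called lower in 3 alternative settings, with DESeq2 (adjusted p = 0.020), with upper-quartile scaling (0.036) and without KO replicate 1 (0.031). Among 19 regulators of mitochondrial gene expression, 1 was called higher and 3 lower, or 21.1%, close to the 20.9% of all tested loci. The one called higher was the locus of Polg, shared with Fanci (log2 fold change 0.18). Besides Polrmt, the locus of Mterfd3 (-0.29) and Ssbp1 (-0.23) were called lower, in 11 and 7 of 13 alternative settings. Polrmt, the mitochondrial RNA polymerase, fell from 2353 and 2369 to 1921 and 1889 (-0.31 ± 0.07 SE, adjusted p = 0.025, limma), with 0.15 without either WT library. Nrf1, the factor whose motif was searched, had 4390 and 4632 in WT and 4696 and 4607 in KO, with overlapping ranges.

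In the tricarboxylic acid cycle, 2 of 19 loci were called higher and 1 lower, or 15.8% against 20.9% of all tested loci. Those called higher, both merged, were the loci of Dlst (0.19 ± 0.05 SE, adjusted p = 0.040, limma) and Pdha1 (0.17 ± 0.05 SE, adjusted p = 0.049, limma). They were called in 8 and 7 of 13 alternative settings. Idh2, the NADP-linked isocitrate dehydrogenase, fell from 12837 and 12338 to 9899 and 9383 (-0.38 ± 0.05 SE, adjusted p = 0.0071, limma), with an adjusted p of 0.058 without WT replicate 1. Of 20 import and cristae genes, 1 was called lower, the chaperonin Hspd1 (-0.32 ± 0.07 SE, adjusted p = 0.028, limma), with 0.14 without WT replicate 2. Of 76 mitochondrial ribosomal protein loci, 1 was called higher and 13 lower, or 18.4% against 20.9% of all tested loci. Their median of -0.13 was below the -0.075 of the oxidative phosphorylation loci. Whether the lists differ was not tested.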

How the data were processed

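Each library has 1 value per locus in the deposited table, and the values are a signal: counts of reads scaled by the authors with a constant for each library. That scaling was read from the values, which in every library were whole multiples of 1 read (100% of them, within 0.001 of a read). The submitters' processing notes name STAR 2.3.1t and mm9. What counted the reads, on which annotation, with which treatment of strand, and what set the scaling is not given in the sources used here. Recovered reads numbered 46597871 and 49764454 in WT and 83586916 and 76688583 in KO. Where a locus has 0 reads, up to 3 remain possible, or 2.27 to 3.89 on the deposited scale, for counting error only.

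Of 22849 rows, 4893 joined neighbouring loci and were left out of the comparisons. The test was limma 3.58.1 (R 4.3.3) on log2(value + 1), with the variance trended on the mean, genotype as the only term and Benjamini-Hochberg adjustment over the 13764 loci that reached 10 in 2 or more libraries, at a threshold of 0.05. This scale understates the change of low loci. With 2 libraries against 2, exact permutation tests cannot pass the threshold and were not used. The alternatives were edgeR 4.0.16 and DESeq2 1.42.0 on the recovered reads, 3 other scalings, a pseudocount of 8, no filter, a minimum of 100, the replicate number as a block and leaving out each library. On the recovered reads edgeR called 2839 loci. The fit was tested on simulated data.

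The members, lists and motifs were chosen with earlier results of these data known. Named genes were Asxl1, the called members of each complex or the 2 with the smallest p, the 2 most abundant, the 4 Sdh genes, tissue isoforms with their counterparts, non-structural loci, and up to 3 called genes per related list. Other genes, among them Ndufs5, Ndufs6, Ndufv1, Ndufv2, Cox5a, Cox5b, Atp5k, Uqcrfs1, Nrf1 and Cyc1, were chosen after their values were seen. Transcript lengths are medians over the best APPRIS principal transcripts of GENCODE M21, used where these agreed within 1.5-fold, a rule set after lengths were seen. Coordinates of loci are mm9, as deposited, and those of promoters GRCm38.p6.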

Additional observations from a re-analysis of the deposited data

Results flagged for a closer look

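Reads in 2 rows of the table that join a member with its neighbour, outside the comparisons, were above the level that a count of 0 allows in both KO libraries and higher than in both WT libraries. The row joining Adck2 and Ndufb2 had a mean of 5.95 in KO, from 7 and 8 reads, with 1 and 2 reads in WT. The row joining Upk1a and Cox6b1 had a mean of 9.73 in KO, from 5 and 19 reads, with 2 and 0 reads in WT. Rows with a few reads in WT alone also occurred. That joining Haus1 and Atp5a1 had 3 and 2 reads in WT and 0 and 0 in KO. How common either pattern is among all joined rows was not counted. In all, 61 joined rows named a member, the highest value in any was 56.8, and together they held 0.0395% of the reads of the members. The KO libraries had more reads, and the part of depth in these counts was not tested.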

How the results depend on the processing

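The counts of calls moved with the scaling and with single libraries, and the causes were not tested. With upper-quartile scaling the loci called lower became 1901 over all loci, 18 among the members, 7 in complex I, 2 in complex II and 5 in complex V, and the medians became -0.13 for the members, -0.12 for complex I and -0.12 for complex V. With median-centred libraries, which adds 0.038 to every locus, the medians were -0.037 for the members, 0.035 for complex III, -0.034 for complex I and -0.030 for complex V, 0 loci of complex III were called lower, and 5 members changed sign, all within 0.035 of 0 at first, among them the named Atp5b (0.0052), Ndufa4l2 (0.019), Ndufb11 (0.030) and Uqcrc1 (0.0027). With upper-quartile scaling 9 members changed sign and with TMM scaling 1. DESeq2 called 9 members lower, 2 each in complexes I and II. With edgeR 1 locus of complex I and 0 of complex III were called lower. Without a filter 0 loci of complex III were called lower, and with a minimum of 100, 1 of complex I was. With single-name loci alone, 2 members were called lower, 1 in complex IV and 0 in complexes III and V, and 1 of complex I was called higher. With structural subunits alone, 1 locus of complex IV was called lower. With Ndufa4 counted in complex I, a choice added after seeing the data, complexes I and IV had 1 each called lower.

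Leaving out 1 library gave 603 to 1714 loci called higher and 266 to 1542 lower over all loci, the lowest counts without a WT library, where the lone sample is assumed to vary like the KO libraries. Members called higher ranged from 1 to 5 and lower from 0 to 9. By complex, the ranges were 0 to 3 higher and 0 to 2 lower in I, 0 to 2 lower in II, 0 to 1 lower in III, 0 to 2 higher and 0 to 3 lower in IV, and 0 to 2 lower in V. The median ranged from -0.093 to -0.043 over the members, from -0.067 to -0.040 in complex I, from -0.17 to -0.084 in II, from -0.076 to 0.048 in III, from -0.14 to -0.081 in IV and from -0.095 to -0.069 in V. Of the 88 members, 4, 4, 6 and 8 changed sign without WT replicate 1, WT replicate 2, KO replicate 1 and KO replicate 2, and 0 of them were called. The named ones with their ranges were Cox7a1 (-0.42 to 0.26), Cox7a2l (-0.00013 to 0.27), Cox8b (-0.27 to 0.83), Ndufa4l2 (-0.14 to 0.10), Sdhd (-0.12 to 0.042) and Uqcrc1 (-0.091 to 0.021).

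No label says that a replicate number marks a pairing, though same-numbered libraries match in the presence or absence of the Y-linked transcript. Their deviations from the mean of each genotype had a correlation of 0.25. With 2 libraries per genotype the crossed value, -0.25, is the same number with its sign reversed. It therefore adds no information on a pairing. With the replicate number as a block, 3 members were called higher and 6 lower, and 1 locus of complex I was called lower.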
